A study of Arabidopsis thaliana with 36 samples.

Results

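The MCM helicase and PCNA genes of Arabidopsis thaliana are 8 of the 28774 genes counted in each library. They were taken by locus code, with no measured value in the rule: MCM2 (AT1G44900), MCM3 (AT5G46280), MCM4 (AT2G16440), MCM5 (AT2G07690), MCM6 (AT5G44635), MCM7 (AT4G02060, also called PROLIFERA), PCNA1 (AT1G07370) and PCNA2 (AT2G29570). All 8 were matched to the reference annotation, and all 8 were among the 19457 genes that passed the filter on low counts.

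The proteins MCM2 to MCM7 join into a ring that is loaded onto replication origins before S phase and then forms the core of the helicase that unwinds DNA at the fork. PCNA is the sliding clamp, a ring that tethers DNA polymerases to their template and also serves DNA repair and chromatin assembly. In plants the genes of both complexes are known as targets of the E2F transcription factors, which RBR1, the retinoblastoma-related protein, holds in check, and their transcripts are typical of tissue in which cells still replicate their DNA.

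RNA was taken from rosette leaves 9 to 12 of plants grown on soil for 5 weeks with 8 h of light and 16 h of dark a day. Leaves were sampled at 0 h, after 6, 24, 48 and 72 h of prolonged darkness, and from plants that stayed in their normal day for a further 72 h, and the libraries at 0 h and after this further 72 h are called cycle libraries here. Plants were of the Col wild type (WT, CS60000) or carried ivd1-2 or hml1-2, and each of the 18 groups of genotype and condition had 2 libraries. The submitters describe both mutants as defective in the catabolism of branched-chain amino acids. IVD encodes isovaleryl-CoA dehydrogenase and HML1 encodes hydroxymethylglutaryl-CoA lyase, which act in the breakdown of leucine, and each mutant is represented by a single allele. Neither the time of day of sampling nor whether the duplicates came from separate plants is given, so the p-values speak only of the spread seen among these libraries. Leaves are mixtures of cells, so fewer cells in S phase and less RNA per cell cannot be told apart.

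Depth ran from 13638597 to 49398596 counts per library. IVD was at 3.16 and 6.23 CPM (counts of a gene scaled to library size, on the TMM scale) in ivd1-2 at 0 h and at 21.5 and 21.8 CPM in WT, and averaged over the 6 conditions it was lower in the mutant by edgeR's quasi-likelihood test (log2 -2.49, adjusted p = 2.48e-10). HML1 was at 46.4 and 56.5 CPM in hml1-2 at 0 h and at 77.9 and 92 CPM in WT, and its averaged difference was smaller (log2 -0.76, adjusted p = 3.98e-07). The mean of the salicylate response genes differed by over 2 log2 between the replicates of 6 of the 18 groups, WT and hml1-2 at 0 h and ivd1-2 at 72 h of darkness (4.06 log2 CPM in replicate 1 and 0.11 in replicate 2) among them. The green leaf markers RCA, RBCS1A and LHCB3 summed to 28800 to 45100 CPM in the 12 cycle libraries. The defining meristem genes WUS and STM had counts in only 1 of the 18 groups each. KNAT1, a further meristem gene, had counts in more groups, ivd1-2 at 0 h and WT at 72 h of darkness among them. It had none in others, such as WT at 0 h.

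The sequences just before the annotated starts are shown because they separate MCM2 to MCM6 from MCM7 and PCNA2. A window of 250 bases before the start of these 7 genes, from RefSeq's TAIR10.1 annotation, was searched on both strands for E2F words (TTTCCCGC, TTTCCCGG, TTTGCCGC, TTTGCCGG, TTTCGCGC, TTTCGCGG, TTTGGCGC and TTTGGCGG), for site II (TGGGCC and TGGGCT), a motif of plant promoters active in growing tissue, and for the core of the mitotic MSA motif (AACGG). Capitals mark E2F and site II words on either strand, and each stretch reads 5′ to 3′ on the gene's strand with up to 12 further bases on each side. The intervals are chr1:16970088-16970213 (plus strand, MCM2), chr5:18773746-18773888 (minus, MCM3), chr2:7130745-7130815 (minus, MCM4), chr2:3527501-3527541 (minus, MCM5), chr5:18010694-18010781 (minus, MCM6) and chr2:12651846-12651893 (minus, PCNA2).
MCM2: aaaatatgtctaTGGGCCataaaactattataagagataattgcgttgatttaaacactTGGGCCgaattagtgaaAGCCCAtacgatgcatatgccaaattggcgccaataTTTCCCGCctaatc
MCM3: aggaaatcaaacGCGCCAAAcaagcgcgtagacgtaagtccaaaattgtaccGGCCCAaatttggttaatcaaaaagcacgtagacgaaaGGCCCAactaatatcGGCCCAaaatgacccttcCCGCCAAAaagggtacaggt
MCM4: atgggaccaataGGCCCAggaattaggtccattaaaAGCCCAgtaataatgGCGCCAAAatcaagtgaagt
MCM5: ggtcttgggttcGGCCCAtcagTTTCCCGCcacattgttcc
MCM6: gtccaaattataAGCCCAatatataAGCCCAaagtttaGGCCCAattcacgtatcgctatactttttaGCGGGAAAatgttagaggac
PCNA2: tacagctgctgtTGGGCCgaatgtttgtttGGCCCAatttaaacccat

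Words for E2F lay upstream of MCM2 to MCM6, 5 of the 7 genes searched. They were 14 to 7 bases before the start of MCM2, 170 to 163 and 59 to 52 before MCM3, 35 to 28 before MCM4, 19 to 12 before MCM5 and 46 to 39 before MCM6. Of the windows of all 27443 protein-coding genes, 2.8% held such a word, and of the 19052 among the genes tested 2.98% did. Site II words lay upstream of the same 5 genes and of PCNA2, 6 of 7 in all, against 19.2% of all windows and 22.6% of those tested. In each of the 5 MCM genes the E2F word nearest the start lay between its site II words and the start. MCM7 held only the MSA core, 21 to 17 bases before its start, and that short word was in 20.6% of all windows. A match is a run of letters, not a bound site, and a window without a match shows only that these letters are not in it.

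**Figure D1:**
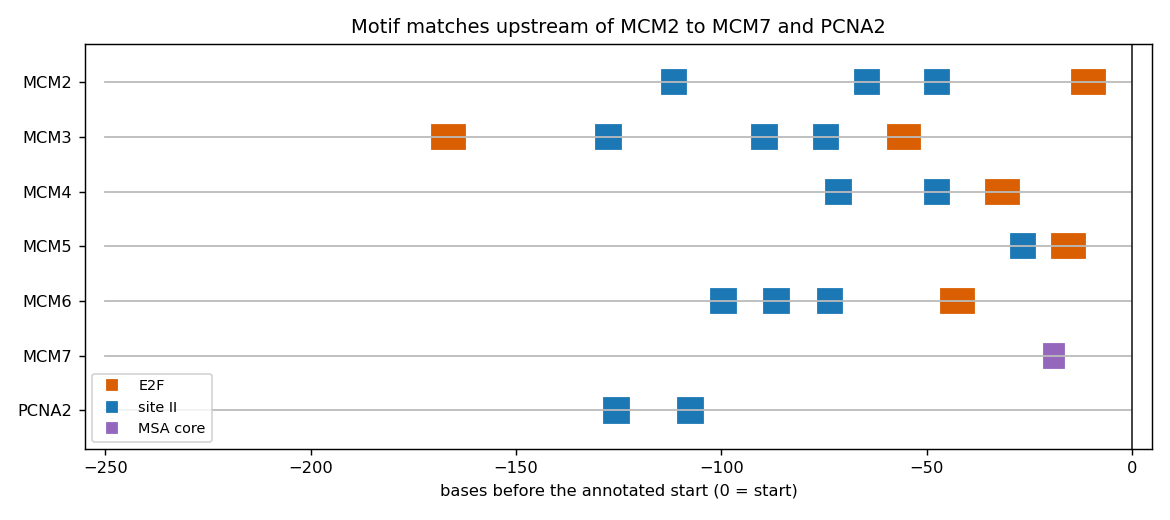
Positions of motif matches in the 250 bases before the annotated starts of MCM2 to MCM7 and PCNA2, on the x axis in bases, with the start at 0. Orange boxes are E2F words, blue boxes site II and the purple box the MSA core, and E2F words appear in 5 of the 7 rows.

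The genes lie on 4 of the 5 chromosomes, and in TAIR10.1 no pair of them is adjacent. MCM2 is at chr1:16970214-16974753 (plus strand, 16 exons), MCM3 at chr5:18769649-18773706 (minus, 11 exons), MCM4 at chr2:7126279-7130729 (minus, 18 exons) and MCM5 at chr2:3522984-3527500 (minus, 18 exons). MCM6 is at chr5:18006212-18010667 (minus, 17 exons), MCM7 at chr4:900636-905591 (plus, 17 exons), PCNA1 at chr1:2263037-2264553 (plus, 4 exons) and PCNA2 at chr2:12649906-12651753 (minus, 4 exons). The PCNA transcripts are close copies, with a longest identical run of 41 bases, but only 6 of the 1095 stretches of 36 bases in PCNA1 also occur in PCNA2 and no stretch of 50 bases does. Exons of PCNA2 overlap 279 bases of the gene ENOC on the opposite strand, and those of MCM7 overlap 21 bases of STP7. The sources used here do not say whether counting used strand, and reads from these stretches may have been assigned to either gene or to none.

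In leaves kept in the day and night cycle all 8 genes were transcribed at low levels. Per kilobase of exon, median levels over the 12 cycle libraries ran from 4.52 CPM per kb for PCNA2 through 3.96 for MCM3, 3.02 for MCM7, 2.65 for MCM5, 2.35 for MCM4, 2.33 for MCM2 and 2.2 for PCNA1 to 1.41 for MCM6. The medians of the 6 MCM genes, whose proteins are used in equal numbers in the ring, lay within 2.81-fold of each other. Every gene's range over the 12 libraries overlapped that of its neighbour in this order. Within libraries, MCM3 was above MCM7, MCM5 above MCM4 and PCNA1 above MCM6 in 12 of 12, and PCNA2 was above MCM3 and MCM7 above MCM5 in 10 of 12. MCM4 was above MCM2 in 4 of 12, and MCM2 above PCNA1 in 8 of 12. MCM4 and MCM2 had ranges of 1.78 to 2.82 and 1.91 to 2.91 CPM per kb.

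After 72 h more of the cycle no member differed from 0 h in any genotype. By edgeR's quasi-likelihood test 0 of 8 genes passed in WT, in ivd1-2 and in hml1-2, as did 0% of all genes tested, with 0 below an unadjusted p of 0.05 and 0 called by DESeq2. The log2 differences of the 8 genes lay between -0.24 and 0.19 in WT, -0.42 and 0.21 in ivd1-2 and -0.21 and 0.30 in hml1-2.

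**Figure D2:**
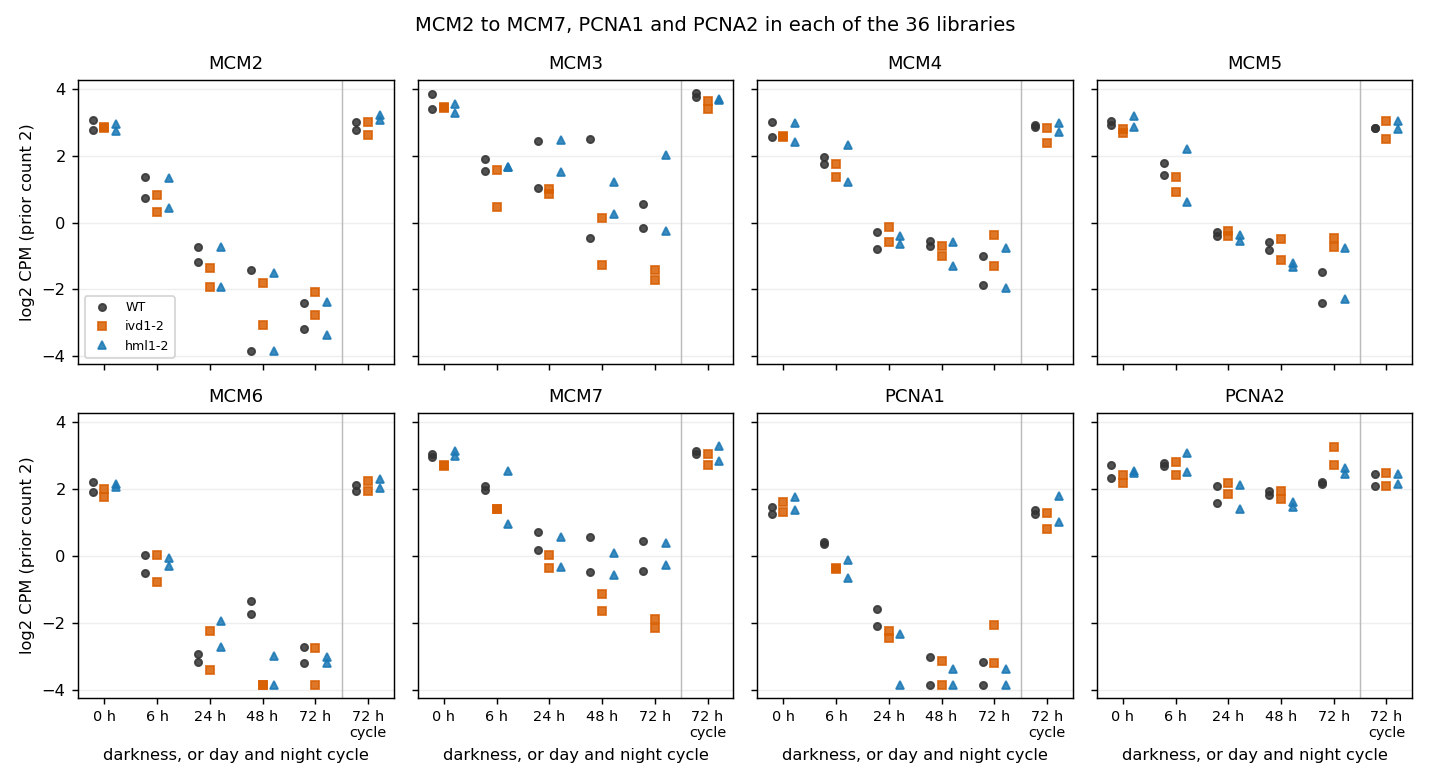
Level of each gene in each of the 36 libraries, as log2 CPM (prior count 2) on the y axis, by condition on the x axis, with circles for WT, squares for ivd1-2 and triangles for hml1-2. MCM2 to MCM7 and PCNA1 drop below their cycle levels within the dark series, while PCNA2 stays between 2.57 and 9.54 CPM in all libraries.

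In prolonged darkness MCM2 to MCM7 and PCNA1 fell in every genotype, and by 72 h each stood at a small share of its cycle level. MCM2, a subunit of the helicase ring, was at 8.06 and 6.82 CPM in WT after 72 h of the cycle and at 0.0412 and 0.118 CPM after 72 h of darkness. The groups are far apart, and the fall left 1.14% of the cycle level (log2 -6.46, SE 0.944, adjusted p = 4.63e-06). The dark libraries held 4 counts in all against 548, so this percentage is not precise.

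MCM6, the least abundant subunit here, was at 4.28 and 3.77 CPM in the cycle and at 0.0825 and 0.0393 CPM in darkness. Its dark libraries held 3 counts in all against 296, a 67.1-fold ratio with a 95% counting interval of 22.7 to 327, which covers counting error only. MCM5, which in yeast forms the gate of the ring with MCM2, went from 7.06 and 7.12 CPM to 0.289 and 0.118 CPM. It retained 2.91% of its cycle level (log2 -5.10, SE 0.545, adjusted p = 6.69e-08). MCM4, known in yeast as part of the catalytic core with MCM6 and MCM7, went from 7.46 and 7.18 CPM to 0.206 and 0.432 CPM, or 4.43% (log2 -4.50, SE 0.496, adjusted p = 1.06e-07).

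The remaining subunits kept more of their transcript in WT. MCM3 was at 13.4 and 14.8 CPM in the cycle and at 1.4 and 0.825 CPM in darkness, 7.91% of the cycle level (log2 -3.66, SE 0.776, adjusted p = 0.000337). MCM7 was at 8.79 and 8.16 CPM in the cycle and at 0.66 and 1.3 CPM in darkness, 11.6% of the cycle level (log2 -3.11, SE 0.475, adjusted p = 8.16e-06). Neither gene's dark libraries overlapped its cycle libraries.

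The clamp genes parted. PCNA1 was at 2.54 and 2.3 CPM in the cycle, and in darkness replicate 1 held 0.0412 CPM and replicate 2 none. That is 1 count against 178, a 121-fold ratio with a counting interval of 21.4 to 4810 (adjusted p = 2.47e-06). PCNA2 was at 5.47 and 4.25 CPM in the cycle and at 4.58 and 4.44 CPM in darkness. These groups overlap, and no difference was called (log2 -0.11, SE 0.272, adjusted p = 0.746).

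Over the members, 7 of 8 genes fell in WT between 72 h of the cycle and 72 h of darkness, against 31.7% of all genes tested. The median log2 of the 8 was -4.80, beside 0.0095 over all genes. In ivd1-2 the same 7 genes fell, against 32.1% of all genes, with a median of -4.76 over the 8. In hml1-2 they also fell, against 32.5% of all genes, with a median of -4.46. In hml1-2 the fall of MCM3 was the smallest of the 7 (log2 -2.39, SE 0.723, adjusted p = 0.00666), and without replicate 2 at 72 h of darkness its call was lost (adjusted p = 0.0878).

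The mutants at 72 h of darkness had these transcripts at similarly low levels, with exceptions described below. In ivd1-2, MCM2 was at 0.169 and 0.0775 CPM, MCM4 at 0.337 and 0.698 CPM, and MCM6 at 0 and 0.0775 CPM. In hml1-2, MCM2 was at 0.027 and 0.122 CPM, MCM4 at 0.189 and 0.527 CPM, and MCM6 at 0.054 and 0.0405 CPM. PCNA1 was at 0.169 and 0.0388 CPM in ivd1-2, and in hml1-2 it was at 0.027 and 0 CPM. Each of these is below the lowest cycle library of its gene.

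The falls began within 6 h. In WT, 4 of the 8 genes fell at 6 h of darkness against 0 h, when 19.2% of all genes tested fell. MCM6 went from 4.61 and 3.72 CPM to 0.633 and 0.959 CPM (log2 -2.40, SE 0.541, adjusted p = 0.00131). MCM2 went from 8.27 and 6.83 to 2.53 and 1.6 CPM (log2 -1.86, adjusted p = 0.0353), and MCM3 from 10.5 and 14.3 to 3.64 and 2.82 CPM (log2 -1.93, adjusted p = 0.0357). The libraries at 6 h lie below those at 0 h for each of these genes. MCM5 also fell (log2 -1.38, adjusted p = 0.0147). MCM4, MCM7 and PCNA1 had log2 values of -0.96, -0.98 and -1.01 that did not pass, with adjusted p-values of 0.0688, 0.078 and 0.186.

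The same step in the mutants called 7 of 8 genes in ivd1-2, against 20.6% of all genes, and 5 of 8 in hml1-2, against 19.8%. PCNA2 was the gene that passed in neither, with log2 values of 0.33 and 0.30, and in hml1-2 MCM3 and MCM4 did not pass either (log2 -1.78 and -0.86, adjusted p = 0.0503 and 0.101). These counts lean on single libraries: without any 1 of the 4 libraries compared in WT the count was 1 to 2. It was 1 to 5 in ivd1-2 when each was left out in turn, where replicate 1 at 0 h and both replicates at 6 h moved it most. In hml1-2 it was 1 to 6, moved by both replicates at 0 h and replicate 1 at 6 h. No cycle library at 6 h was analysed here, so 6 h of darkness and 6 h of the day cannot be told apart.

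**Figure D3:**
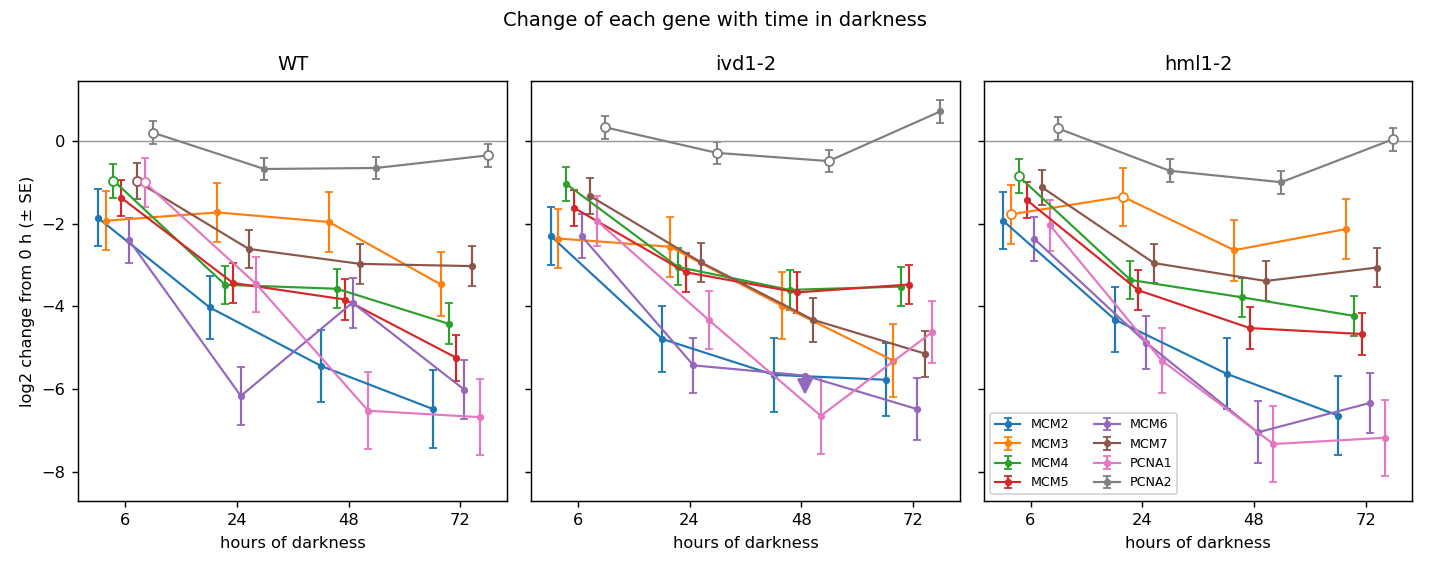
Change of each gene from 0 h to each time in darkness, as log2 fold change ± SE from the fit over 36 libraries on the y axis, by hours of darkness on the x axis (points are shifted sideways to separate genes), 1 panel per genotype. Filled points passed, open points did not, the triangle marks MCM6 in ivd1-2 at 48 h at its bound, and PCNA2 is the line that stays near 0.

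By 24 h all 8 genes had fallen in WT, against 25.7% of all genes, and at 48 h again all 8, against 29.5%. At 72 h 7 of 8 were below 0 h, against 32.2%, and PCNA2 was not (log2 -0.35, adjusted p = 0.272). In ivd1-2, 7 of 8 had fallen at each of 24, 48 and 72 h, against 23.3%, 30.6% and 32.7% of all genes. In hml1-2, 7 had fallen at 24 h, 8 at 48 h and 7 at 72 h, against 25.9%, 30.5% and 33.6%. The gene left out at 24 h in hml1-2 was MCM3, at 5.53 and 2.82 CPM (log2 -1.35, adjusted p = 0.113), and at 72 h it was PCNA2. Median log2 values of the 8 genes in WT went from -1.19 at 6 h through -3.45 at 24 h and -3.71 at 48 h to -4.83 at 72 h.

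The genes fell further between 6 and 24 h, with a median log2 change of -2.11 in WT, -1.81 in ivd1-2 and -2.29 in hml1-2, beside -1.19, -1.78 and -1.6 in the first 6 h. From 6 to 24 h 7 of 8 genes fell in WT, against 8.2% of all genes, and MCM3 did not pass (log2 0.20). In ivd1-2 6 of 8 fell, against 6.22%, without MCM3 (log2 -0.20) and PCNA2 (log2 -0.62, adjusted p = 0.122). In hml1-2 7 of 8 fell, against 8.19%, again without MCM3 (log2 0.43). With single libraries left out the counts were 3 to 4 in WT, whichever of the 4 was removed, 2 to 4 in ivd1-2 (both replicates at 24 h and replicate 1 at 6 h) and 1 to 7 in hml1-2 (replicate 2 at 24 h and replicate 2 at 6 h).

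After 24 h no further step of the MCM genes or PCNA1 was called. From 24 to 48 h 0 of 8 genes fell by edgeR in WT, ivd1-2 and hml1-2, against 2.14%, 4.54% and 3.65% of all genes, with 1, 2 and 1 genes lower at an unadjusted p under 0.05. From 48 to 72 h 0 of 8 fell, against 0.0514%, 3.06% and 0.267%, with 2, 0 and 0 lower at that p, and DESeq2 called no fall in any of these 6 steps. Without replicate 2 at 48 h in hml1-2 the count from 24 to 48 h was 1. The counts left at these times were few: MCM6 in ivd1-2 had 0 at 48 h against 185 at 0 h, at least 51.1-fold lower (3 counts over the group taken as the floor), and PCNA1 in WT had 1 at 48 h against 114 at 0 h.

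The replicates of MCM3 differed in several dark groups. In WT it was at 5.39 and 1.99 CPM at 24 h, and at 5.6 and 0.654 CPM at 48 h. Replicates 1 and 2 of hml1-2 at 72 h were at 4.02 and 0.77 CPM. Replicate 1 was the higher in 9 of the 9 groups with 24 h or more of darkness, by ratios of 1.13 to 8.56 with a median of 2.02. Among the other MCM genes replicate 1 was the higher in 4 groups for MCM2, 4 for MCM4, 3 for MCM5, 5 for MCM6 and 1 for MCM7. Replicates of these genes differed in places too, and spread was not compared between genes. MCM2 was at 0.305 and 0 CPM in WT at 48 h. In hml1-2 at 6 h MCM7 was at 1.86 and 5.8 CPM, and MCM3 at 3.1 and 3.11 CPM. The calls of MCM3 in WT leaned on single libraries. At 24 h (log2 -1.73, adjusted p = 0.0451) the call was lost without either library at 0 h or replicate 2 at 24 h. At 48 h (log2 -1.96, adjusted p = 0.0237) it was lost without replicate 2 of either group. The call at 48 h was also lost with only the groups compared (log2 -1.95, adjusted p = 0.126). The neighbouring gene KASI, 349 bases upstream on the same strand, was at 22.2 and 23 CPM in WT at 72 h of darkness and at 93.9 and 97.8 CPM in the cycle, and reads running between the 2 genes were not tested.

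PCNA2 took over nearly all PCNA transcript in darkness. It made up 61.5 to 73.9% of PCNA counts in the 12 cycle libraries (median 66.6%), 83.9 to 91% in the 6 libraries at 6 h (median 89.5%) and 94.1 to 100% in the 18 libraries at 24 to 72 h (median 99.1%). These 3 ranges do not overlap. In replicate 2 of WT at 0 h 85 counts came from PCNA2 and 30 from PCNA1, a share of 73.9% with a Wilson 95% interval of 65.2 to 81.1%. The sum of both genes was 5.86 to 8.92 CPM in the cycle libraries and 2.57 to 9.71 CPM at 24 to 72 h of darkness, so the shift in share went with a loss of PCNA1.

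PCNA2 itself was lowest in the middle of the dark series. In WT it started at 4.96 and 6.59 CPM, was 6.84 and 6.39 CPM after 6 h, then 4.21 and 2.95 CPM after 24 h and 3.81 and 3.49 CPM after 48 h, and ended at 4.58 and 4.44 CPM. It was below 0 h at 24 h (log2 -0.68, SE 0.275, adjusted p = 0.0438) and at 48 h (log2 -0.66, SE 0.277, adjusted p = 0.0483). Both calls were lost without replicate 2 at 0 h, with only the groups compared in the fit and with no filter on low counts. The call at 24 h was also lost without replicate 2 at 24 h, and that at 48 h without either replicate at 48 h and with DESeq2's size factors or test.

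In hml1-2 PCNA2 started at 5.54 and 5.81 CPM, was 5.61 and 8.38 CPM after 6 h, then 4.28 and 2.57 CPM after 24 h and 2.99 and 2.68 CPM after 48 h, and ended at 6.21 and 5.43 CPM. It fell at 24 h (log2 -0.72, SE 0.275, adjusted p = 0.0335) and 48 h (log2 -1.0, SE 0.276, adjusted p = 0.00386), and the difference between 72 and 48 h did not pass (log2 1.04, SE 0.275, adjusted p = 0.102). The call at 24 h was lost without either library at 0 h or replicate 2 at 24 h, with no low-count filter and with only the groups compared. The call at 48 h was lost with only the groups compared (log2 -0.97, adjusted p = 0.0743).

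In ivd1-2 PCNA2 started at 5.27 and 4.51 CPM, was 4.49 and 3.53 CPM after 24 h and 3.76 and 3.23 CPM after 48 h, and ended at 9.54 and 6.51 CPM in darkness and 5.56 and 4.18 CPM in the cycle. Both libraries at 72 h of darkness lie above every other library of the gene in this genotype outside 6 h, where the levels were 5.31 and 6.99 CPM. It was the 1 of the 8 genes that rose against 0 h (log2 0.71, SE 0.273, adjusted p = 0.0273), when 31.7% of all genes rose. It was also the 1 that rose against the cycle (log2 0.72, SE 0.272, adjusted p = 0.0255; 31.7% of all genes) and against 48 h (log2 1.2, SE 0.277, adjusted p = 0.0159; 5.11% of all genes).

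These 3 rises rest on replicate 1 at 72 h of darkness, which is among the libraries that differ from their partner in the salicylate genes. Without it the log2 values were 0.41, 0.42 and 0.90, with adjusted p-values of 0.27, 0.256 and 0.31. The rise against 0 h was also lost without either replicate at 0 h, that against the cycle without replicate 2 of the cycle, and that against 48 h without either replicate at 48 h. Each was lost with only the groups compared in the fit. ENOC, the overlapping neighbour, was at 9.34 and 11.5 CPM in ivd1-2 at 72 h of darkness and at 18.5 and 19.8 CPM in the cycle (log2 -0.87, adjusted p = 4.28e-05), so its level moved the other way.

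Between genotypes the members differed late in darkness or not at all. Against WT, ivd1-2 had 0 of 8 genes called by edgeR at 0 h, 6 h, 24 h and after 72 h of the cycle, against 0.0103%, 0.0154%, 0.488% and 0.0154% of all genes, with 0 below an unadjusted p of 0.05 and 0 called by DESeq2. At 48 h 1 of 8 was called, against 3.71% of all genes. This was MCM6, with 0 counts in both ivd1-2 libraries and 12 in WT, at least 3.9-fold lower (adjusted p = 0.0153). The call was lost without either ivd1-2 library (adjusted p = 0.104 and 0.0988) or without replicate 2 of WT (0.0503).

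At 72 h of darkness 3 of 8 genes differed between ivd1-2 and WT, against 23.3% of all genes, so the share of members lies near that of the genes in general. MCM7 was at 0.202 and 0.155 CPM in ivd1-2 and at 0.66 and 1.3 CPM in WT. It was lower in the mutant (log2 -2.42, SE 0.552, adjusted p = 0.00423). MCM5 was at 0.539 and 0.659 CPM in ivd1-2 and at 0.289 and 0.118 CPM in WT, higher in the mutant (log2 1.55, SE 0.551, adjusted p = 0.047). PCNA2 was at 9.54 and 6.51 CPM against 4.58 and 4.44 CPM, also higher in the mutant (log2 0.83, SE 0.273, adjusted p = 0.032). For these 3 genes the libraries of the genotypes did not overlap.

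Single libraries decide these calls. That of MCM7 was lost without replicate 2 of WT (log2 -1.85, adjusted p = 0.0669), and that of MCM5 without any 1 of the 4 libraries (log2 1.04 to 2.30, adjusted p = 0.0527 to 0.318). PCNA2 lost its call without replicate 1 of ivd1-2 (log2 0.53, adjusted p = 0.373) or either replicate of WT (adjusted p = 0.11 and 0.141). With only the groups compared in the fit all 3 calls were lost, at an adjusted p of 0.425 each. MCM5 also missed the threshold with no filter on low counts (adjusted p = 0.0519). MCM3, at 0.303 and 0.233 CPM in ivd1-2 against 1.4 and 0.825 CPM in WT, did not pass (log2 -2.03, adjusted p = 0.0906).

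**Figure D4:**
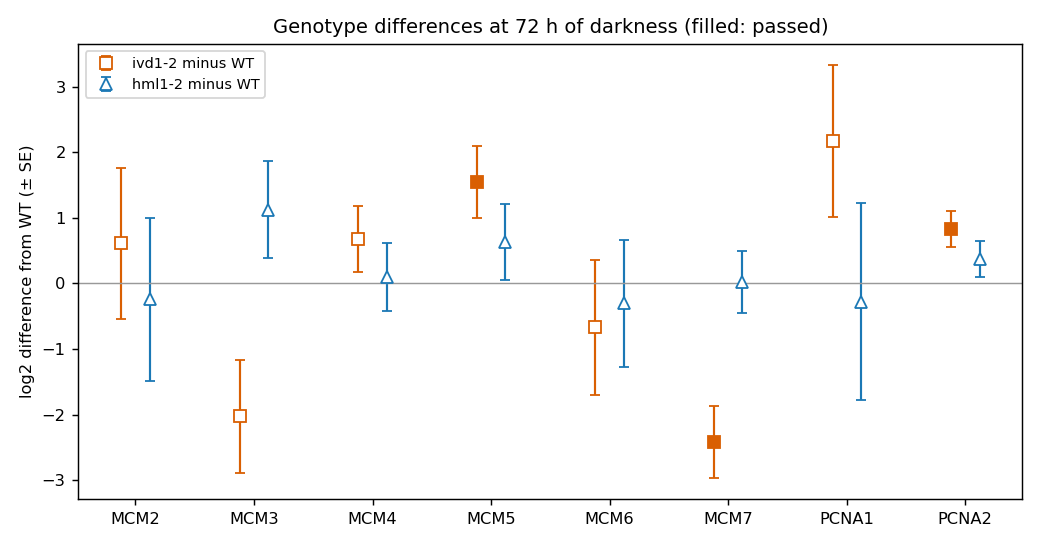
Difference of each mutant from WT at 72 h of darkness for each gene, as log2 ± SE on the y axis, with squares for ivd1-2 and triangles for hml1-2, filled where the gene passed. MCM7 lies at -2.42 and MCM5 and PCNA2 at 1.55 and 0.83 in ivd1-2, and no triangle is filled.

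Averaged over the 6 conditions, 2 of 8 genes were called between ivd1-2 and WT, against 16.5% of all genes. MCM7 was lower in ivd1-2 (log2 -0.98, SE 0.194, adjusted p = 0.00217), as was MCM3 (log2 -1.06, SE 0.301, adjusted p = 0.0211). The call of MCM3 was lost without replicate 1 of WT at 24 h (adjusted p = 0.0525) or at 48 h (0.0848), while MCM7 passed with any single library left out. At 48 h MCM7 was at 0.247 and 0.387 CPM in ivd1-2 and at 0.648 and 1.42 CPM in WT, a difference that did not pass there (log2 -1.66, adjusted p = 0.0893). STP7, whose exons touch those of MCM7, was also lower in ivd1-2 than in WT at 72 h of darkness, at 12.9 and 16.7 CPM against 24.1 and 33.5 CPM (log2 -0.96, adjusted p = 0.0323), and its part in the counts of MCM7 was not tested.

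The change from the cycle to 72 h of darkness was not called different between ivd1-2 and WT for any member: 0 of 8 by edgeR, against 4.52% of all genes, 3 below an unadjusted p of 0.05 and 0 by DESeq2. The gene with the lowest p was MCM7 (log2 -2.22, SE 0.696, adjusted p = 0.0683). With the replicate number as a block in edgeR's fit MCM7 passed (adjusted p = 0.0265), though these numbers were not taken as pairs. The other genes called at 72 h had differences of 1.58 (MCM5, adjusted p = 0.195) and 0.83 (PCNA2, SE 0.384, adjusted p = 0.223).

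In hml1-2 no member was called against WT. By edgeR 0 of 8 passed at 0 h, 6 h, 24 h, 48 h, 72 h of darkness and 72 h of the cycle, against 0.00514%, 0.00514%, 0.0103%, 0.00514%, 0.00514% and 0.0103% of all genes. It was 0 of 8 too in the average over conditions (0.0257% of all genes) and in the change from the cycle to darkness (0.00514%), and DESeq2 called 0 in each. Below an unadjusted p of 0.05 there was 1 gene at 48 h, MCM6 (log2 -3.11, adjusted p = 1), and 0 elsewhere. At 72 h of darkness the difference was 0.024 (SE 0.471) for MCM7, 0.37 (SE 0.273) for PCNA2 and 1.12 (SE 0.736) for MCM3, all as log2.

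Between the mutants 2 of 8 genes were called at 72 h of darkness, against 20.9% of all genes. MCM7 was also called there between ivd1-2 and WT, and MCM3 was not (log2 -2.03, adjusted p = 0.0906). MCM5 and PCNA2, called between ivd1-2 and WT, were not called between the mutants. MCM3 was at 0.303 and 0.233 CPM in ivd1-2 and at 4.02 and 0.77 CPM in hml1-2 (log2 -3.15, SE 0.84, adjusted p = 0.0122). MCM7 was at 0.202 and 0.155 CPM against 0.756 and 1.26 CPM (log2 -2.44, SE 0.548, adjusted p = 0.00429). Both were lower in ivd1-2, with no overlap between the libraries. Without replicate 1 of ivd1-2 both calls were lost (adjusted p = 0.113 and 0.0513), that of MCM3 was lost without replicate 1 of hml1-2 as well (0.3), and with only the groups compared both were lost (0.489).

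Averaged over conditions the same 2 genes were called between the mutants, against 8.88% of all genes, with log2 -1.05 for MCM3 (SE 0.299, adjusted p = 0.0308) and -0.87 for MCM7 (SE 0.193, adjusted p = 0.0071). The call of MCM3 was lost without either ivd1-2 replicate at 0 h, 24 h or in the cycle, its replicate 2 at 6 or 48 h, hml1-2 replicate 2 at 0 h, or hml1-2 replicate 1 at 24, 48 or 72 h of darkness, at an adjusted p of 0.052 to 0.0974. At 0 h, 6 h, 24 h, 48 h and 72 h of the cycle edgeR called 0 of 8 between the mutants, against 0.00514%, 0.0103%, 0.164%, 1.49% and 0.00514% of all genes, with 1 below an unadjusted p of 0.05 at 48 h and 0 at the others, and DESeq2 called 0. For the change from the cycle to darkness it was 0 of 8, against 3.62% of all genes, with 3 below an unadjusted p of 0.05 and 0 by DESeq2. With the replicate number as a block in edgeR's fit MCM7 passed in this change (adjusted p = 0.0248). The comparisons between genotypes share samples, so their values are set side by side here and are not independent of each other.

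Other genes of DNA replication did not all follow the helicase. The lists of pathway genes were written from general knowledge. In WT at 72 h of darkness against the cycle 31.9% of all genes tested rose and 31.7% fell. Together 63.6% passed in either direction. Of the origin licensing genes, which load the MCM ring, 0 of 10 rose and 8 fell, with a median of -4.17 (log2), or -3.07 with genes at 0 counts set at their bounds. CDT1A, a loading factor, was at 0.1 ± 0.025 CPM (SD, n = 2) in darkness and 2.85 ± 0.894 in the cycle (log2 -4.77, adjusted p = 4.59e-07). ORC5, a subunit of the origin recognition complex, fell less (log2 -1.09, adjusted p = 0.00216), as did ORC4 (log2 -1.98, adjusted p = 0.0404), which shares 80 exon bases with a gene on the opposite strand.

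The partners of MCM2 to MCM7 at the fork, the GINS subunits and CDC45 with their relatives, moved in both directions. Of 10 genes 2 rose and 5 fell, with a median of -0.86, and the share that passed lies near that of all genes. PSF1, a GINS subunit, was at 202 ± 29.8 CPM (SD, n = 2) in darkness and 7.25 ± 1.17 in the cycle (log2 4.80, adjusted p = 3.67e-11). PSF2, another GINS subunit, rose as well (log2 2.04, adjusted p = 1.29e-05). Against them ETG1, which binds the MCM ring, was at 0.14 ± 0.0236 CPM in darkness and 5.69 ± 0.512 in the cycle (log2 -5.30, adjusted p = 2.68e-07). PSF1 and PSF2 thus rose in the libraries in which the 6 MCM genes fell.

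Among the replicative polymerases 2 of 10 rose and 6 fell, with a median of -1.43. The catalytic subunit of polymerase alpha, POLA1 (also named ICU2), fell to 0.198 ± 0.164 CPM from 11.8 ± 0.0598 (log2 -5.86, adjusted p = 3.68e-09), though 870 of its exon bases overlap ALC on the opposite strand. POLA2, its regulatory subunit, and POLA3, the small primase subunit, fell by log2 -4.32 and -6.02 (adjusted p = 6.78e-06 and 4.98e-08). The large primase subunit, POLA4 (named EMB2813 in RefSeq), was at 18 ± 1.79 CPM against 7.37 ± 0.947 and rose (log2 1.29, adjusted p = 7.07e-05), as did POLD4 of polymerase delta (log2 0.66, adjusted p = 0.00161).

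The clamp loader and Okazaki fragment genes, which act on and with PCNA, had 3 of 7 rising and 1 falling, with a median of 0.40. Their share that passed lies near that of all genes. RFC5 and RFC2, subunits of the clamp loader, rose to 24.8 ± 3.26 CPM from 8.45 ± 1.5 and to 4.74 ± 0.29 CPM from 1.81 ± 0.188 (log2 1.55 and 1.39, adjusted p = 0.000543 and 0.00193). LIG1, which seals the fragments, fell (log2 -1.37, adjusted p = 0.00232).

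RPA, the single-strand binding protein, had 1 of 9 genes rising and 4 falling, with a median of -0.83, also a share near that of all genes. RPA1D fell (log2 -4.74, adjusted p = 0.00014) as did RPA3B (log2 -0.95, adjusted p = 0.000799), and RPA1A rose (log2 1.47, adjusted p = 0.000189). Of the genes for nucleotide and histone supply 0 of 6 rose and 2 fell, among them RNR1, the large subunit of ribonucleotide reductase (log2 -1.14, adjusted p = 0.00514). MSI1 and TSO2 did not pass (log2 0.29 and -0.65), and the share of the supply list that passed was below that of all genes.

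**Figure D5:**
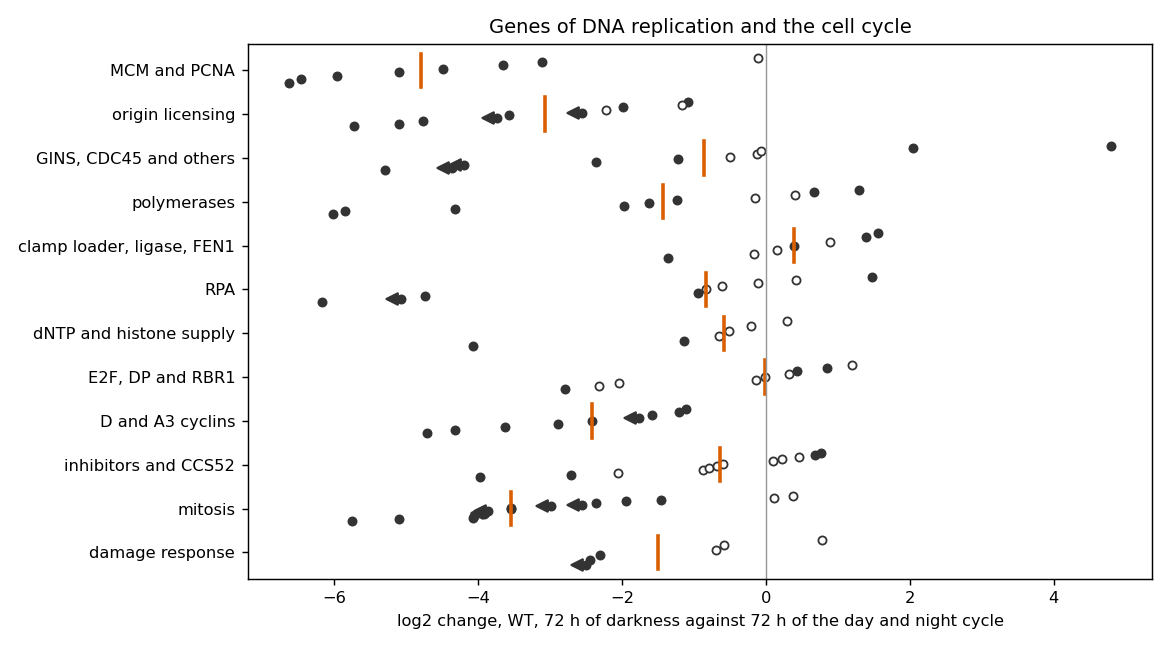
Log2 change of each gene of the replication and cell cycle lists in WT, 72 h of darkness against 72 h of the cycle, on the x axis, with 1 row per list on the y axis and an orange line at each list's median. Filled points passed, open points did not, arrows mark genes with 0 counts in darkness at their bounds, and the clamp loader list is the 1 whose median lies clearly above 0.

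The E2F regulators of these genes passed less often than genes in general. Of the E2F, DP and RBR1 list 2 of 9 rose and 1 fell, with a median of -0.012. E2FA, an activator of S phase genes, was at 0.38 ± 0.129 CPM (SD, n = 2) in darkness and 2.65 ± 0.24 in the cycle (log2 -2.79, adjusted p = 5.52e-05). RBR1 was at 57.6 ± 2.21 CPM against 32 ± 3.93 and rose (log2 0.85, adjusted p = 5.95e-05), as did DPB, an E2F partner (log2 0.43, adjusted p = 0.0235).

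Among the D and A3 cyclins 0 of 9 rose and all 9 fell, with a median of -2.89, or -2.42 with bounds. CYCA3;2, an S phase cyclin, was at 0.606 ± 0.135 CPM in darkness and 16 ± 0.889 in the cycle (log2 -4.72, adjusted p = 2.62e-10). CYCD2;1 and CYCD3;3, which act upstream of RBR1, fell too (log2 -2.42 and -3.63, adjusted p = 1.45e-07 and 8.51e-06).

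The list of cell cycle inhibitors and CCS52 genes had 2 of 12 rising and 2 falling, with a median of -0.64. It too passed less often than genes in general. CCS52A1, an activator of the anaphase-promoting complex, fell (log2 -3.97, adjusted p = 1.53e-07), and so did the inhibitor KRP2 (log2 -2.71, adjusted p = 4.51e-06). KRP1 (log2 0.76, adjusted p = 0.00266) and CCS52A2 (log2 0.68, adjusted p = 0.0109) rose.

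Genes of mitosis fell with the helicase: 0 of 16 rose and 14 fell, with a median of -3.99, or -3.55 with bounds. CDKB2;2, a mitotic kinase, was at 0.0805 ± 0.0028 CPM in darkness and 1.28 ± 0.116 in the cycle (log2 -3.92, adjusted p = 0.000452), and CDKB2;1 fell less (log2 -1.45, adjusted p = 0.0194). KNOLLE, the syntaxin of cell plate formation, did not pass (log2 0.11, adjusted p = 0.838). None of the 17 mitosis genes held an E2F word in its window, and 11 held the MSA core (64.7%, against 20.6% of all windows). Of the 11 licensing genes 5 held an E2F word (45.5%, against 2.8%). Lists that moved in both directions held E2F words too, in 3 of 10 GINS and CDC45 genes, 3 of 9 RPA genes and 3 of 9 E2F, DP and RBR1 genes. Of the 9 D and A3 cyclins, which all fell, 1 did. A link between these words and the falls was not tested.

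Of the DNA damage response list 0 of 6 rose and 3 fell, with a median of -1.50, and the share that passed was below that of all genes. PARP1 and BRCA1, which act in DNA repair, fell (log2 -2.44 and -2.30, adjusted p = 5.8e-06 and 0.000707), and SOG1, the regulator of the plant damage response, did not pass (log2 0.78, adjusted p = 0.0664).

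At 6 h of darkness against 0 h the lists had moved less: in WT 1 of 10 licensing genes rose and 4 fell, and of the polymerases 0 of 10 rose and 5 fell. Of the mitosis list 0 of 16 rose and 3 fell. Of all genes tested 21% rose and 19.2% fell, 40.2% in either direction. In ivd1-2 at 72 h of darkness against the cycle 0 of 10 licensing genes rose and 6 fell, and 5 of 7 clamp loader and fragment genes rose and 0 fell, when 31.7% of all genes rose and 32.1% fell. In hml1-2 these counts were 0 and 8, and 4 and 1, when 31.4% rose and 32.5% fell. Between ivd1-2 and WT at 72 h of darkness 6 of the 9 E2F, DP and RBR1 genes were higher in the mutant and 0 lower. Of all genes tested 12.6% were higher and 10.7% lower. The other lists are not given for this comparison, so the count does not mark the E2F list as particular. List calls were not repeated in the alternative fits. The calls of MCM5, MCM7 and PCNA2 in this comparison were lost with only the groups compared.

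Likeness of expression was measured as Pearson's r over the 36 libraries between a gene's log2 CPM and the mean of the 8 members' standardised log2 CPM. The members themselves reached 0.977 (PCNA1), 0.972 (MCM4), 0.971 (MCM5), 0.97 (MCM6), 0.968 (MCM2), 0.936 (MCM7), 0.827 (MCM3) and 0.454 (PCNA2). Each of these r values includes the gene in the mean. Against the mean of the other 7, MCM7 reached 0.915, MCM3 0.773 and PCNA2 0.331. Ranked by r among 16489 genes, PCNA1 was at 13 and MCM2 at 54, with MCM4, MCM5 and MCM6 between. MCM7 was at 487, MCM3 at 2591 and PCNA2 at 5958, so many other genes were closer to the mean. These are descriptions, since the libraries share treatments.

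The genes that averaged 1 CPM or more numbered 16489, the members among them. Outside the members, the 10 most like them included POLA1 (r 0.983), POLA3 (0.979), the cyclin gene CYCA2;3 (0.977) and ETG1 (0.977). The others were FBA7 (0.982), a fructose-bisphosphate aldolase gene, GHR1 (0.982), a receptor-like kinase gene, HEME1 (0.981), of porphyrin synthesis, AT2G18400 (0.98), NEET (0.979) and LHCB6 (0.977), of light harvesting. LHCB6 was at 5220 ± 378 CPM (SD, n = 2) in WT in the cycle and at 139 ± 6.15 CPM after 72 h of darkness (log2 -5.23, adjusted p = 4.72e-09). GHR1 was at 9.13 ± 0.195 CPM in the cycle and had no counts after 72 h of darkness. A pattern close to the members' was therefore held by replication genes and by genes of the chloroplast alike.

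Markers of leaf cell types also moved in darkness. The 3 green leaf markers summed to 464 to 1120 CPM at 72 h of darkness, against 28800 to 45100 CPM in the cycle, and all 3 fell in WT (log2 -5.61 to -6.12). Of the 7 growing leaf and meristem markers 3 were tested, and their list summed to 3.99 to 5.87 CPM in the cycle and 5.8 to 17 CPM at 72 h of darkness. In WT GRF1 and AN3 rose (log2 2.93 and 1.38) and ANT, a marker of growing organs, fell (log2 -3.08, adjusted p = 0.00429). At 72 h of darkness the list summed to 13.7 to 17 CPM in WT and 13.7 to 14.6 CPM in hml1-2, above every cycle library, and to 5.8 and 14.4 CPM in the libraries of ivd1-2, the lower of them within the range of the cycle.

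The 6 markers of the stomatal lineage summed to 37.7 to 56.7 CPM in the cycle and 12.8 to 47.6 CPM at 72 h of darkness, where 3 fell and 0 rose in WT, and SPCH, which marks the dividing cells of that lineage, was at 0 in each genotype. The 4 flower markers, of which 2 were tested, summed to 0.0776 to 0.989 CPM in the cycle and 2.4 to 14.8 CPM at 72 h of darkness. In WT PI held 136 counts at 72 h of darkness and 3 in the cycle. AP1 and AP3 had no counts at 72 h of darkness in WT or ivd1-2, so the sum does not speak for every marker. The part of these shifts in the values of the MCM and PCNA genes was not tested.

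The 6 groups whose replicates differed in the salicylate genes are given with the sums of the members, and the part of that difference in the results was not tested. In WT at 0 h their mean was 5.76 and 0.41 log2 CPM in replicates 1 and 2, while the 8 members summed to 52.2 and 58.3 CPM. In hml1-2 at 0 h the means were 6.56 and 0.43 and the sums 50.6 and 56.8 CPM. In ivd1-2 at 72 h of darkness the means were 4.06 and 0.11 and the sums 11.3 and 8.45 CPM, of which the 7 genes without PCNA2 made 1.72 and 1.94 CPM. In hml1-2 after 72 h of the cycle the means were 5.22 and 0.72 and the sums 52 and 61.6 CPM. In WT at 48 h of darkness the means were 1.67 and -1.44 and the sums 11.7 and 7.09 CPM, and in ivd1-2 at 6 h the means were 3.49 and 5.93 and the sums 19.2 and 18.4 CPM.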

How the data were processed

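RNA from leaves was sequenced in 36 libraries, 2 in each of 18 groups defined by the genotype and condition in the labels. The authors deposited raw counts per gene, with no normalization, and the submitters' processing notes list TAIR10 as the build and, as tools, HTSeq, Cuffdiff 2.1.1, SAMtools 0.1.19, TopHat 1.4.1 and Trimmomatic 0.30. The rows for unassigned reads were left out. They held 0.582 to 1.47% (no feature) and 1.7 to 2.36% (ambiguous) of each library.

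The tests used edgeR 4.0.16 in R 4.3.3. Genes were kept by filterByExpr (minimum count 10, minimum total 15), libraries were scaled by TMM, and all 36 entered a single fit with 1 coefficient per group and 18 residual degrees of freedom. Each contrast had edgeR's quasi-likelihood test, its p-values were adjusted by Benjamini-Hochberg over all 19457 genes, and the threshold was an adjusted p of 0.05. "Rose" and "fell" are used of genes that passed. The script was tested on simulated data. Levels are CPM on the TMM scale, log2 CPM used a prior count of 2, and CPM per kb uses exon length in TAIR10.1. The window upstream of PCNA1 is not reported here. Where a group had 0 counts, the ratio is a bound with 3 counts in their place. Where a member had 1 to 3 in WT at 72 h of darkness against the cycle, a 95% counting interval is given. In other comparisons, and for list genes such as POLA3 with 2 counts in darkness, values from so few counts stand without an interval.

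The members and lists were chosen with earlier results of these data known, and list genes named in the text are, among those with a mean of at least 1 CPM, the 3 with the smallest p in WT at 72 h and up to 2 passing against the list's direction. The alternatives were DESeq2 size factors, DESeq2 1.42.0's own test, fits with no filter, on genes averaging 5 CPM or more, with replicate as a block, on the compared groups alone, and without each library in turn.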

Additional observations from a re-analysis of the deposited data

Results flagged for a closer look

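PCNA2 moved in opposite directions from 0 h to 72 h of darkness in ivd1-2 and in WT. Both ivd1-2 libraries at 72 h, at 9.54 and 6.51 CPM, lay above both at 0 h (5.27 and 4.51 CPM), while both WT libraries at 72 h, at 4.58 and 4.44 CPM, lay below both at 0 h (4.96 and 6.59 CPM). The log2 changes were 0.71 in ivd1-2 and -0.35 in WT, and the latter did not pass. The difference between them was 1.065 (SE 0.387, edgeR's quasi-likelihood test) and did not pass after adjustment over all genes (adjusted p = 0.11). This difference was tested after the values had been seen, and the mean of the salicylate genes differed between the replicates of ivd1-2 at 72 h (4.06 and 0.11 log2 CPM) and between those of WT at 0 h (5.76 and 0.41), whose part in the difference was not tested.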

How the results depend on the processing

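Counts of members called stayed within 1.5 times their values under DESeq2's size factors, DESeq2's own test and no filter on low counts. With only the groups compared in the fit, the count that fell at 6 h of darkness in WT was 7, and that from 6 to 24 h in hml1-2 was 3. At 72 h of darkness the calls of MCM5, MCM7 and PCNA2 between ivd1-2 and WT were lost under it (edgeR, adjusted p = 0.425 each). So were those of MCM3 and MCM7 between the mutants (0.489 each) and the rises of PCNA2 in ivd1-2. A mean of at least 5 CPM left only MCM3 and PCNA2, so members were not counted under it. The replicate numbers were not taken as pairs, since the labels give no shared source and not every correlation was over 0.1: over 153 pairs of groups, the correlation of the difference between replicates ran from -0.333 to 0.849 (median 0.274), and 120 were over 0.1. With the replicate number as a block 2 genes were called between ivd1-2 and WT at 48 h, 1 in the difference in dark response between ivd1-2 and WT and 1 between ivd1-2 and hml1-2, and over all comparisons 9 calls of single genes were gained and 0 lost. MCM7 was the gene gained in these 3 comparisons (adjusted p = 0.0344, 0.0265 and 0.0248), and MCM3 was gained between ivd1-2 and WT at 72 h of darkness (0.0484).

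With each library left out in turn, counts that fell against 0 h were 1 to 2 (6 h), 6 to 8 (24 h) and 6 to 8 (48 h) in WT, 1 to 5 (6 h) and 6 to 7 (24 h) in ivd1-2, and 1 to 6 (6 h), 6 to 7 (24 h), 7 to 8 (48 h) and 6 to 7 (72 h) in hml1-2. Against the cycle at 72 h hml1-2 gave 6 to 7. From 6 to 24 h the counts were 3 to 4, 2 to 4 and 1 to 7 in WT, ivd1-2 and hml1-2, and from 24 to 48 h in hml1-2 0 to 1. Between ivd1-2 and WT they were 0 to 1 at 48 h, 0 to 2 at 72 h and 1 to 3 averaged, and between ivd1-2 and hml1-2 0 to 3 at 72 h and 1 to 2 averaged. A group reduced to 1 library is assumed to vary like the others.

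Signs were compared for the changes in darkness against 0 h and against the cycle, and elsewhere only for members that were called. Among these they turned only for PCNA2 where it did not pass. With each library left out in turn its log2 ran from -0.013 (without replicate 1 at 0 h) to 0.414 at 6 h in WT, from -0.014 (without replicate 2 at 6 h) to 0.563 at 6 h in hml1-2, and from -0.278 to 0.086 (without replicate 1 of the cycle) at 72 h against the cycle in WT. At 72 h against 0 h in hml1-2 it ran from -0.063 to 0.131, below 0 without replicate 1 at 0 h (-0.01) or at 72 h (-0.063), and it was -0.005 with DESeq2's size factors, -0.116 with a mean of at least 5 CPM and -0.001 with DESeq2's test. The cause of these changes was not tested. Depth limits what the dark libraries show: MCM6 and PCNA1 rest on 0 to 3 counts per group at 72 h in several groups. MCM2 rests there on 4 counts in WT, 7 in ivd1-2 and 4 in hml1-2.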

Other observations

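The list genes that rose in WT at 72 h of darkness against the cycle were set beside the members after their values were seen. PSF1 stood at 202 ± 29.8 CPM (SD, n = 2). RBR1 was at 57.6 ± 2.21 CPM and KRP1, an inhibitor of cyclin-dependent kinases, at 36.8 ± 9.13 CPM. These values are not scaled to exon length, so they do not rank the genes. PSF3B, a further GINS subunit, fell (log2 -1.22, adjusted p = 0.0224). The exons of PSF1 overlap those of no other counted gene in TAIR10.1.

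For PCNA2, as for MCM3, replicate 1 was the higher in 9 of the 9 groups with 24 h or more of darkness. For PCNA1 it was the higher in 6 of 9 groups. The share of all genes with replicate 1 higher in each group was not counted. Over all genes tested, differences between replicates were correlated between many pairs of groups (median 0.274), so this detail is not taken as particular to these genes.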
